A study of Homo sapiens with 2 samples.

Results

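Interferon-stimulated genes encode the antiviral proteins that a cell makes when type I interferon binds its receptor. Signalling from the receptor acts on a promoter element called the interferon-stimulated response element (ISRE). Lipopolysaccharide (LPS), a component of the outer membrane of Gram-negative bacteria, is sensed by TLR4, and one branch of TLR4 signalling leads through IRF3 to interferon beta and from there to these genes. Genes of this kind were measured here in LPS-stimulated THP-1 cells.

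The genes were taken from a fixed list of 10 Agilent catalogue probes, named ISG15, IFIT1, IFIT3, IFI44, IFI44L, MX1, MX2, OAS1, OASL and RSAD2 in the catalogue. Of these probes, 8 were present on the arrays, among 75149 probes in all. The probes for IFIT3 (A_23_P35412) and RSAD2 (A_24_P316965) were not present, so these genes are not analysed here. The files give probe identifiers alone, and the gene names rest on the catalogue. For the same reason the monocytic identity of the cells was not checked against marker genes.

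THP-1 cells are a leukaemia line of the human monocytic lineage. Both cultures were grown in RPMI-1640 with serum, antibiotics and β-mercaptoethanol. The control array (Con) held RNA of cells labelled as control, for which the sample protocol names DMSO and the methods say untreated. The LPS array held RNA of cells stimulated with LPS, with a treatment time of 48 h in the sample protocol and no dose or differentiation step given in the sources used here. Each condition had 1 array, so no difference has a replicate check, no test was made, and the only error that can be given is technical, from the repeated spots of each probe.

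The promoters of these genes are shown because the ISRE is the element through which type I interferon acts on them. RefSeq start sites (GRCh38.p14) were held for 6 of the 8 measured genes, with 9 start sites in all, each with 250 bases before and 50 bases after the start. The letters GAAANNGAAA, the core of the ISRE, were searched on both strands, where the other strand reads TTTCNNTTTC. Of the 6 genes, 5 had a match (ISG15, IFIT1, IFI44, IFI44L and MX1), against 4.38% of all 27305 genes in the RefSeq table. By start site, 7 of the 9 had a match, against 3.57% of all 35116. OAS1 had no match to these letters. After its sequence was read, the shorter form GAAANGAAA (TTTCNTTTC on the other strand), with 1 base in the middle, was searched as well. It was present in OAS1, MX1 and IFI44, and in 3.87% of all genes. The stretches before the start sites are printed 5′ to 3′ on the gene's strand, which is the plus strand for each, with the letters matched by either form in capitals.

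IFIT1, chr10:89392495-89392554: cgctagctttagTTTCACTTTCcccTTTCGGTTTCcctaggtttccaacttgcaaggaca
ISG15, chr1:1013365-1013424: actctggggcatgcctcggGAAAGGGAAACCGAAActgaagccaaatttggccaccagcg
IFI44, chr1:78649746-78649788: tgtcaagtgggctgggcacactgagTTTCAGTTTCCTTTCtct
IFI44L, chr1:78620350-78620409: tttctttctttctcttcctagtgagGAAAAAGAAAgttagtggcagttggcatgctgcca
MX1, start 2, chr21:41426146-41426204: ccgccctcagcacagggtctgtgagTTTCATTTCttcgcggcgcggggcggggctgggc
MX1, start 3, chr21:41431829-41431888: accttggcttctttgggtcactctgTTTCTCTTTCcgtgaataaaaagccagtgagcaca
OAS1, chr12:112906920-112906961: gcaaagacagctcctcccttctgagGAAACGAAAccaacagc

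IFIT1 held 2 matches with 3 bases between them, the nearer one starting 103 bases before the start site. ISG15 held 2 matches that overlap each other, the nearer starting 107 bases before the start. The core match of IFI44 overlaps one of the shorter form, and it lay 18 bases before the first of its 2 annotated starts, and that of OAS1, in the shorter form, 17 bases before its start. IFI44L had matches at 164 and 73 bases before its start. MX1 had 3 annotated starts. Its core matches lay 196 bases before the third start and from 12 to 21 bases after the first, and the second start had none. The second start had shorter-form matches at 113 and 68 bases before it, the nearer of which is printed, and the first start had one 19 bases before and one 7 bases after it. A match describes letters and not binding, which was not measured.

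**Figure D1:**
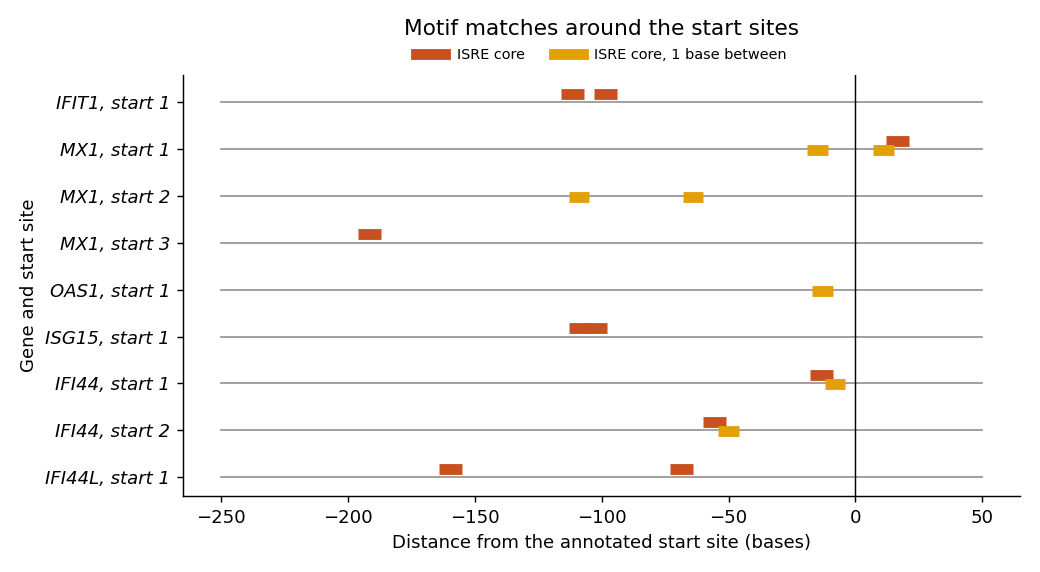
Matches to the ISRE core (orange) and its form with 1 base between (yellow) for the 6 measured genes with a RefSeq start site, drawn by distance in bases from each of the 9 start sites (grey lines span 250 bases before to 50 after). IFIT1 and ISG15 each have 2 ISRE matches, the nearer at 103 and 107 bases before the start, and OAS1 has the shorter form alone, 17 bases before the start.

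All 8 genes were dimmer on the LPS array than in the control. The differences, LPS minus Con, ran from -2.32 (log2) for IFIT1 to -0.45 for OASL, with a median of -1.03, after each array was scaled to its 75th percentile. The median over the 69392 probes detected on at least 1 array was -0.10. IFIT1, MX1, OAS1 and MX2 were at least 2-fold lower, which is 4 of the 8 genes, and 0 of the 8 were 2-fold higher. Of all detected probes 16.5% were called lower and 0.783% higher at that threshold. Most of those lower calls came from dim probes. In the dimmest of 10 groups by signal, the median difference was -1.84 over all 7515 probes, of which 2400 were detected on at least 1 array. The 8 genes all lay in the 2 brightest groups, 6 of them in the brightest, where the median difference was 0.03 in each. Of the 15029 probes in these 2 groups, 1.70% were called lower and 0.739% higher. These 2 groups were taken as background after the signals of the 8 genes were seen. In RNA from a whole culture, fewer cells that express a gene and less RNA per cell cannot be told apart.

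**Figure D2:**
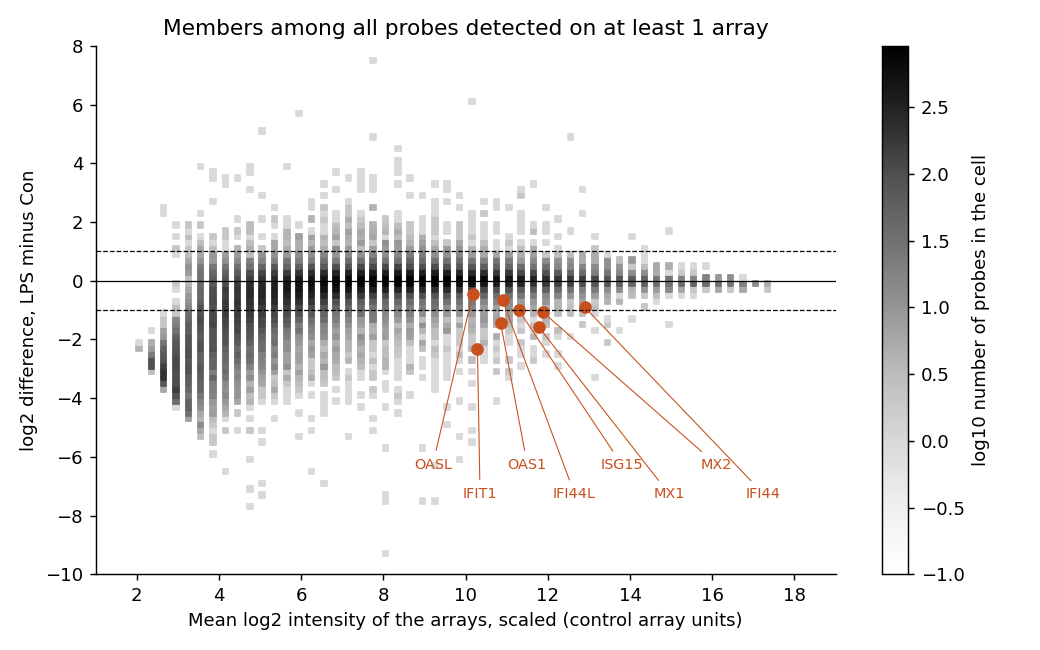
Difference between the arrays (log2, LPS minus Con) against the mean log2 intensity of the arrays for 69392 probes, shown as the number of probes in each cell (grey), with the 8 interferon-stimulated genes in orange and dashed lines at 2-fold. Dim probes at the left lie below 0 as a group, while the 8 genes lie among bright probes that centre on 0, and all 8 lie below it.

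The 8 genes had 2 spots each, at the same positions on both arrays. All 32 spots were well above background, 0 carried an outlier flag and 0 were saturated. The raw local background around them was 15 to 20 on the control array and 16 to 21 on the LPS array, against spot signals of 608 or more. In all 16 pairs of spots at the same position, the spot on the LPS array was the dimmer one. The SD between spots of a gene was 0.002 to 0.10 (log2) on an array. The scanner software gave each of these spots an error of 10.0% of its signal. For each gene this comes to 0.14 (log2) for a difference between the arrays, if the spot errors are taken as independent. It is a near-fixed share of the signal and not a spread measured between spots. All 8 differences were larger than 2 such errors. Neither measure includes the spread between cultures.

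ISG15 (A_23_P819), a ubiquitin-like protein that is attached to other proteins and also secreted, had spot signals of 3445 and 3642 on the control array and 1933 and 1953 on the LPS array. The spots of the arrays did not overlap, and those of the LPS array lay close together. The scaled difference was -0.9996 (log2), with -0.97 and -1.03 at the positions, so that ISG15 lay at the 2-fold threshold and missed it by less than the SD between spots (0.06 for the difference). Among the 15029 bright probes, 255 were lower than ISG15, or 1.70%.

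IFIT1 (A_23_P52266), a protein with tetratricopeptide repeats that binds viral RNA lacking the cap methylation of host RNA, showed the largest difference of the 8. Its spot signals were 2721 and 2857 on the control array and 608 and 620 on the LPS array. The lowest control spot was 4.39 times the highest LPS spot as deposited, before any scaling. The scaled difference was -2.32 (log2), which is 4.98-fold lower, with an interval of -2.61 to -2.03 at 2 software errors. Of the bright probes, 46 (0.306%) were lower still. IFIT1 was separated from the next gene in the order, MX1, by 0.73 (log2), beyond 2 software errors of that gap (0.20 for 1 error).

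MX1 and MX2 are dynamin-like GTPases that block incoming viruses, MX1 influenza virus among others and MX2 lentiviruses. They are neighbouring genes on chromosome 21. MX1 (A_23_P17663) had spot signals of 6054 and 6151 on the control array and 2234 and 2230 on the LPS array. Its scaled difference was -1.58 (log2), or 2.998-fold lower. MX2 (A_23_P6263) had signals of 5353 and 5490 on the control array and 2918 and 2781 on the LPS array, a scaled value of -1.06 or 2.09-fold lower. For both genes the control spots lay above the LPS spots with a wide gap. The difference of MX1 minus that of MX2 was -0.52 (log2), with a software error of 0.20 and a spot SD of 0.06. Such a gap between genes does not move with a scaling by a single factor. Of the 10 other settings, only background correction and quantile and cyclic loess normalization changed these genes otherwise than by a shared shift. The gap stayed between -0.53 and -0.52.

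OAS1 and OASL belong to the oligoadenylate synthetases. OAS1 senses double-stranded RNA and makes the short oligoadenylates that switch on RNase L, whereas OASL has no synthetase activity, carries ubiquitin-like repeats and promotes RIG-I signalling. OAS1 (A_23_P64828) had spot signals of 3007 and 3123 on the control array and 1165 and 1287 on the LPS array. The difference was -1.46 (log2), or 2.75-fold lower, and its LPS spots had the widest spread of the 8 genes, with an SD of 0.10. OASL (A_23_P139786) had signals of 1319 and 1379 on the control array and 1045 and 1118 on the LPS array. This was the smallest difference of the 8, -0.45 or 1.37-fold lower, with an interval of -0.74 to -0.16 at 2 software errors. The spots of the arrays still did not overlap, the lowest control spot being 1.18 times the highest LPS spot as deposited. Of the bright probes, 799 (5.32%) were lower than OASL. OAS1 and OASL were the most unequal of the 3 related pairs, with a difference of OAS1 minus OASL of -1.004 (log2) and a software error of 0.20. That difference ranged from -1.02 to -0.97 across the same settings, most of which shift both genes alike.

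IFI44 and IFI44L are related interferon-induced proteins encoded side by side on chromosome 1. IFI44 (A_23_P23074) had spot signals of 10817 and 10168 on the control array and 6342 and 5906 on the LPS array. This came to -0.91 (log2), or 1.88-fold lower. IFI44L (A_23_P45871) had signals of 2468 and 2363 on the control array and 1694 and 1629 on the LPS array, which came to -0.67 or 1.59-fold lower. Both genes were lower at each position and neither reached 2-fold. Their differences lay 0.24 (log2) apart, which is within 2 software errors of the gap (0.20 for 1 error) although larger than its spot SD of 0.11.

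**Figure D3:**
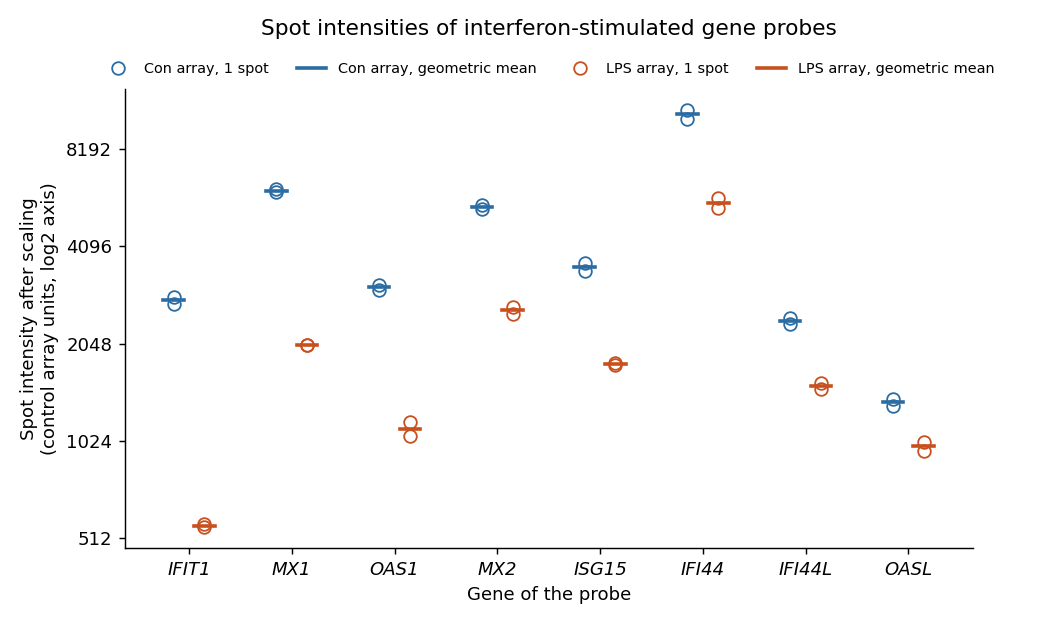
Intensity of each spot after scaling, in units of the control array on a log2 axis, for the 8 genes on the Con array (blue) and the LPS array (orange), with circles for spots and bars for their geometric mean. For each of the 8 genes the 2 LPS spots lie below the 2 control spots, with the widest gap for IFIT1 and the narrowest for OASL. Intensities of different probes are not comparable with each other.

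In order of the fall the genes were IFIT1, MX1, OAS1, MX2, ISG15, IFI44, IFI44L and OASL. Beyond the step from IFIT1 to MX1, no step between neighbours in this order exceeded 2 software errors. MX2 and ISG15 lay 0.06 (log2) apart and ISG15 and IFI44 0.09 apart, within the spot SDs of 0.08 and 0.11, so their order is not resolved. Of the genes with 2 matches to the ISRE core before 1 start, IFIT1 held place 1 and ISG15 place 5 (not resolved from its neighbours). IFI44L held place 7 (within 2 software errors of its neighbours). Counting the shorter form as well would add MX1 (place 2) and IFI44 (place 6). A link between the matches and the size of the fall was not tested.

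**Figure D4:**
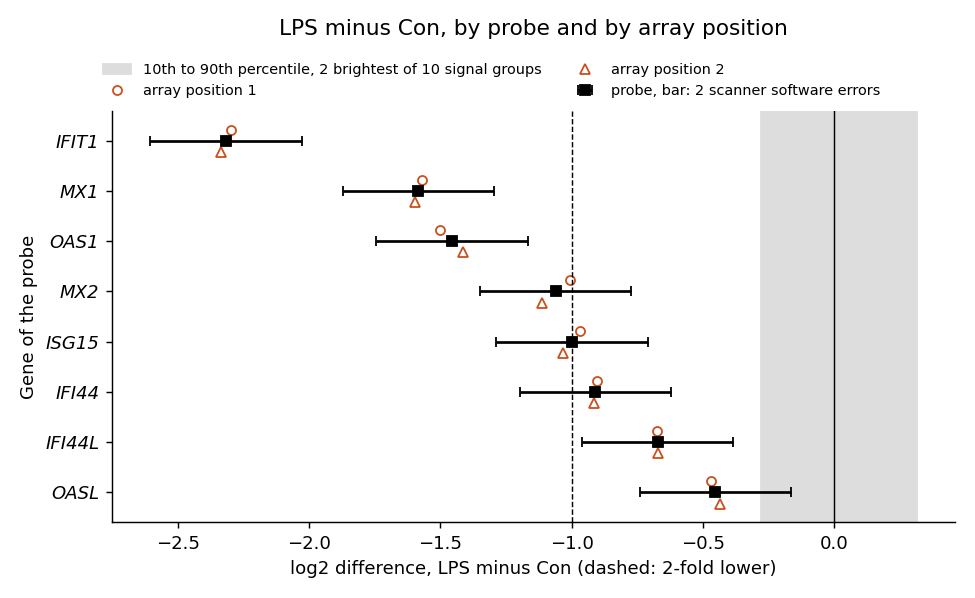
Difference between the arrays (log2, LPS minus Con) for the 8 genes, as the mean over spots with bars of 2 scanner software errors (squares) and at each of the 2 array positions (circle and triangle). The grey band spans the 10th to the 90th percentile of the 2 brightest signal groups, -0.28 to 0.32, and all 8 means lie to its left.

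The 8 genes were also lower on the LPS array under every other setting in which they could be measured, 78 of 78 values. Most of these settings shift the genes by a shared amount, so the values are not separate checks. Without any scaling between the arrays, the differences ran from -2.18 for IFIT1 to -0.32 for OASL. MX1, OAS1 and IFIT1 were at least 2-fold lower in each setting that measured them, while MX2 was so in 9 of 11, ISG15 in 6 of 10 and IFI44 in 1 of 11, the reported setting included. IFI44L and OASL reached 2-fold in 0 of 11. The human GAPDH and PGK1 control probes of the arrays moved the other way, by 0.33 to 0.54 (log2, LPS minus Con) after scaling, and their part in the result was not tested.

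**Figure D5:**
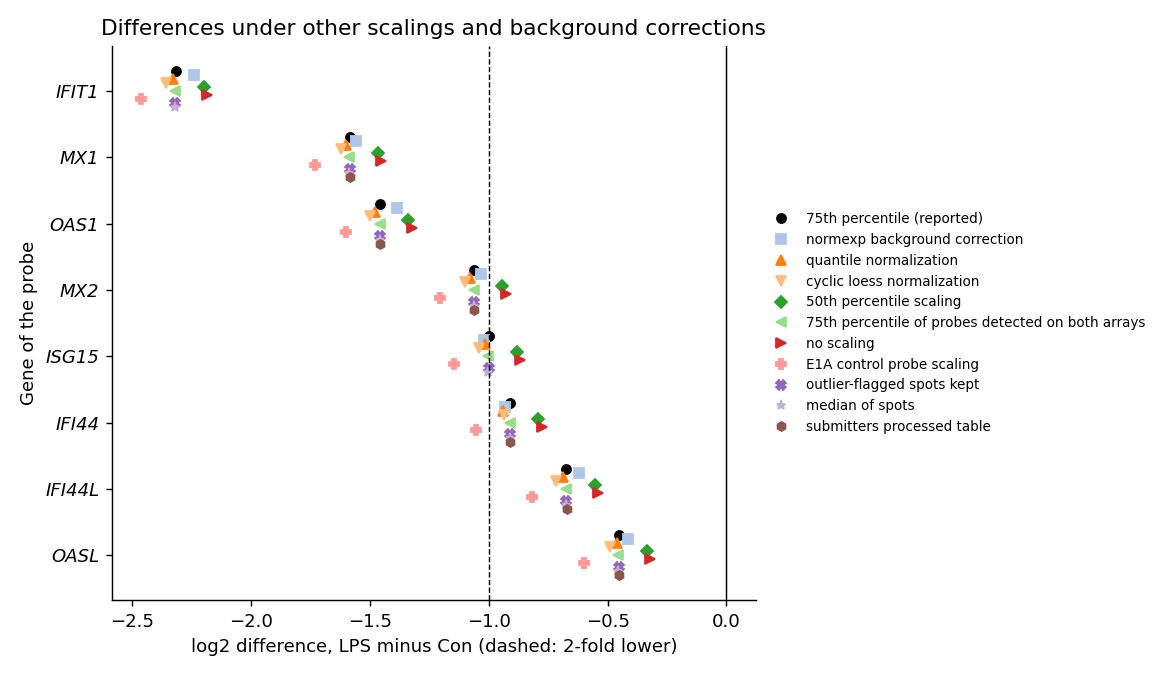
Difference between the arrays (log2, LPS minus Con) for each of the 8 genes under the reported scaling (black circles) and 10 other settings (coloured symbols), with a dashed line at 2-fold lower. All values lie below 0, and ISG15 lies on both sides of the dashed line. IFIT1 and ISG15 have no value from the submitters' processed table.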

How the data were processed

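RNA of THP-1 cells was labelled with Cy3 and read as 1 colour. The authors deposited, per array, the spot intensity from Agilent Feature Extraction 11.5.1.1, background-subtracted and spatially detrended by that software, with no scaling between arrays, and a processed intensity table by probe (6 of the 8 genes are in the table as used here). From the spot intensities, control spots were dropped, and so were outlier-flagged spots unless all spots of a probe were flagged. A mean log2 value was taken per probe. Each array was then centred on the 75th percentile of its probes, a shift of -0.13 (log2) for LPS relative to Con. A probe was detected where a majority of its spots were well above background, and called at 2-fold. Where 1 array was not detected, the fold is a bound. Precision is limited by the number of arrays.

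The genes named and the lists were chosen with earlier results of these data known. All genes of the list are named. A list of further interferon-response genes and one of cell type markers were not read, because no table used here pairs probes with genes. RefSeq promoters were matched by gene symbol, with 6 of 8 found. Python 3.11.15, numpy 2.4.6, pandas 2.3.3, matplotlib 3.10.9, R 4.3.3 and limma 3.58.1 were used, the last for normexp (offset 50, on median spot and background intensities), quantile and cyclic loess normalization. Other settings were scaling to the 50th percentile, to the 75th percentile of probes detected on both arrays, to 6 E1A control probes or not at all, spots with outlier flags kept, the median of spots, the processed table, other detection filters, and thresholds of 1.5-fold, 3-fold and 4-fold.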

Additional observations from a re-analysis of the deposited data

How the results depend on the processing

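No difference of the 8 genes changed direction under the 10 alternatives that move the values. The other detection filters and thresholds leave the differences as they are, so no direction could change there. In all 16 alternatives, 0 genes were called higher. Of the 78 values of single genes under the 10 alternatives that move them, 50 stayed within the SD between spots and 28 moved by more. Most of these alternatives shift all genes alike, some by very little, so the split does not count separate checks. The median difference of the 8 genes, -1.03 (log2), was -0.91 with scaling to the 50th percentile, -0.90 with no scaling and -1.18 with scaling by the E1A control probes. It was between -1.07 and -1.02 under the other alternatives that hold all 8 genes. The processed table gave -0.98 over the 6 genes it holds, which leave out IFIT1, the largest fall, so that value is not a like comparison. The number of genes at least 2-fold lower, 4 of 8 as reported, was 3 to 6 under the other scalings, corrections, filters and values that hold all 8. In the processed table it was 3 of the 6 genes held. With the reported values it was 7 of 8 at a threshold of 1.5-fold, 1 at 3-fold and 1 at 4-fold. The share of all detected probes called lower was 1.89% with normexp, 5.202% with quantile normalization and 6.002% with cyclic loess, against 16.5% as reported, while in the 2 brightest signal groups it stayed between 1.40% and 2.12% at 2-fold. No paired analysis was possible because both conditions have a single array. The depth of signal did not limit these genes, since all their spots were well above background on both arrays, and the spread between cultures was not measured.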
